A study of Mus musculus with 2 samples.

Results

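The cells described here are lung CD4+ T cells that carried transcripts of the Th2 transcription factor Gata3 and of the IL-33 receptor Il1rl1, but a unique molecular identifier (UMI, 1 counted transcript molecule) of at most 1 of the type 2 cytokine genes Il4, Il5 and Il13. They are called few-cytokine Th2 cells below. There were 449 of them among the 9003 gated T cells of 2 libraries, and 12537 cell barcodes in all. The control library held 243, which was 5.17% of its gated T cells (95% Clopper-Pearson interval 4.56 to 5.85). The other library held 206, which was 4.78% (4.16 to 5.46). The members were chosen from measured values. A cell had at least 500 genes and 2000 UMIs, less than 10% mitochondrial UMIs, at least 2 UMIs of Cd3d, Cd3e and Cd3g together, no UMI of Lyz2 or Foxp3, at least 1 UMI each of Gata3 and Il1rl1, and fewer than 2 UMIs of the cycling genes Mki67 and Top2a.

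Th2 cells are helper T cells that make IL-4, IL-5 and IL-13, which drive antibody class switching, eosinophil growth and mucus production in allergic airways. GATA3 establishes the lineage. ST2, the product of Il1rl1, lets tissue Th2 cells respond to the epithelial alarmin IL-33, and IL-17RB does the same for IL-25. The cytokine genes lie close together on chromosome 11 (GRCm38): Il4 at 11:53602982-53618669 and Il13 at 11:53631324-53634702 on the minus strand, and Il5 at 11:53720794-53725106 on the plus strand, with Rad50 at 11:53649519-53707319 between Il13 and Il5. Cytokine transcription in T cells is intermittent and follows stimulation, so a committed cell need not hold these transcripts at the moment of capture.

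Both libraries came from mice whose Nfe2l2 alleles were flanked by loxP sites (Nfe2l2fl/fl), aged 8 to 15 weeks. The control library was labelled without Cre. The other was labelled Cd4cre Nfe2l2fl/fl; Cd4-Cre acts from the double-positive thymocyte stage, so in all T cells of the alpha-beta lineage that pass through it and not in Th2 cells alone. NRF2, encoded by Nfe2l2, is a transcription factor of the antioxidant response. The labels describe 2 airway models, a fungal protease from Aspergillus oryzae with ovalbumin given every other day, and the mite allergen Der f 1, with lungs taken 16 h after the last dose. The labels do not say which model, or how many mice, stood behind each library. With 1 library per genotype there is no test between genotypes, and genotype and library cannot be told apart.

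The labelled genotype was checked first in the members. Nfe2l2 (2:75675513-75704641, minus strand) stood at 38.3 CPM (UMIs of the gene per 1000000 UMIs of the class and library) in the control library and at 194 CPM in the library labelled Cd4cre Nfe2l2fl/fl, a log2 ratio of 2.34 (95% interval from counting error 1.97 to 2.72). The level was thus not lower in the library labelled with Cre. The labels could not be checked with this gene, and an exchange of the 2 labels is not settled by these data. Control library and Cd4cre library below mean the libraries so labelled, and every difference between them carries this limit. The same held in the T cells outside the gate, at 38.9 against 189 CPM. The flanked exons are not named in the labels, so transcripts of a deleted allele may still be counted and the value neither shows nor excludes a deletion.

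The few-cytokine cells were compared with 2 other classes of the same gate. Polyfunctional Th2 cells, 489 and 317 in the control and Cd4cre libraries, met every other condition but held UMIs of at least 2 of the 3 cytokine genes. Comparison T cells, 1632 and 1647, had no UMI of Gata3, Il1rl1 or Foxp3. The classes differed in depth. Few-cytokine cells had a median depth of 7455 UMIs (control) and 6410.5 UMIs (Cd4cre), against 9308 and 8654 for polyfunctional cells and 5176 and 4918 for comparison T cells. In total 2011701 and 1468209 UMIs of few-cytokine cells were counted. The libraries shared 49 cell barcodes, among them 2 and 1 of the few-cytokine cells.

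Markers outside the gate were used to examine the Th2 label. Il17rb, the IL-25 receptor chain (14:29996135-30008896), stood at 20.4 and 17.7 CPM in few-cytokine cells of the control and Cd4cre libraries, against 3.66 and 2.96 CPM in comparison T cells and 26.4 and 33.9 in polyfunctional cells. Only 35 of 243 and 19 of 206 cells held a UMI of it. Cd200r1, an inhibitory receptor found on Th2 cells (16:44765736-44794978), stood at 63.6 and 49.0 CPM, against 28.4 and 13.9 in comparison T cells and 96.5 and 97.4 in polyfunctional cells. Both markers were thus above the comparison T cells in each library, and both were lower than in polyfunctional cells. A wider set of Il17rb, Cd200r1, Pparg, Calca and Epas1 was read after each cell was thinned to 2000 UMIs. A UMI of at least 1 of them was held by 47.7% and 49.0% of few-cytokine cells. The share was 13.1% and 9.23% of comparison T cells and 65.2% and 63.4% of polyfunctional cells. Calca, Epas1 and Pparg also ranked among the genes most raised over comparison T cells in these same data, as given below. The share for the wider set is therefore a description and not an independent check of the Th2 label.

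The gate is a range of UMI counts and not a boundary between cell types. Of the few-cytokine cells, 42 and 56 held a single Gata3 UMI, and 78 and 79 a single Il1rl1 UMI. Gata3 stood at 649 and 582 CPM in few-cytokine cells and at 704 and 735 in polyfunctional cells, and Il1rl1 at 398 and 388 against 397 and 483 CPM. Both levels were read by the gate and are given as a description.

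Markers of other cell types were then read in the few-cytokine cells. Cd4 stood at 279 and 353 CPM, against 284 and 383 in comparison T cells, with UMIs in 198 of 243 and 177 of 206 few-cytokine cells. Of 12 mast cell and basophil markers, 10 were at 0 in each library. A count of 0 allows up to 1.49 and 2.04 CPM at these totals, and the markers together summed to 8.95 and 4.77 CPM. Of 10 granulocyte markers, 7 and 4 were at 0. Macrophage and monocyte markers summed to 210 and 262 CPM, against 255 and 294 in comparison T cells. Dendritic cell markers summed to 740 and 560 CPM, against 314 and 407, and 1 control cell held 431 of the 555 Cd74 UMIs of its class. Of 4 measured CD8 T and NK cell genes, Fcer1g (27.8 and 21.8 CPM against 4.99 and 9.86) and Tyrobp (48.7 and 41.5 against 15.9 and 10.4) were higher than in comparison T cells, each from 5 and 8 or 9 cells. Group 2 innate lymphoid cells share Gata3 and Il1rl1 with Th2 cells. Their receptor gene Nmur1 stood at 11.9 and 15.0 CPM in 20 and 18 few-cytokine cells, against 0.712 and 0.657 CPM in comparison T cells and 14.1 and 9.31 in polyfunctional cells. Of 10 measured genes on their list, 2 were at least 1.5-fold higher than in comparison T cells in both libraries (Il2ra and Cxcl2). Ccl5 was lower, and the median log2 ratios were 0.36 and 0.49. Over all genes 2.14% were higher and 2.61% lower. The 13 listed genes summed to 1903 and 2520 CPM, against 2056 and 5765 in comparison T cells, where Ccl5 alone stood at 729 and 4274. Trac, the T cell receptor alpha constant gene, stood at 287 and 274 CPM (200 and 154 cells), against 376 and 342 in comparison T cells. The part of other cell types in the results below was not tested.

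How many Th2 cells fell into the few-cytokine class depended on depth. Without thinning, 33.2% (29.8 to 36.7) of the 732 Gata3+ Il1rl1+ T cells of the control library and 39.4% (35.2 to 43.7) of the 523 of the Cd4cre library held UMIs of at most 1 cytokine gene, a difference of 6.19 percentage points. Among cells of 2000 to 4000 UMIs the share was 66.7% (14 of 21) and 60.7% (17 of 28). Among cells of 12000 UMIs or more it was 19.9% and 14.8%, so the deepest cells were the least often classed as few-cytokine. The order of the libraries was not the same at every depth. The Cd4cre library was higher at 4000 to 6000 UMIs (59.5% against 52.4%) and at 6000 to 8000 (46.7% against 34.7%), and lower in the other ranges, with 26.6% against 28.6% at 8000 to 12000. Thinned to 2000 UMIs, the share was 63.3% and 66.9% over all cells, a difference of 3.67 points, and it ranged from 59.1% to 75.2% over the depth ranges.

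**Figure D1:**
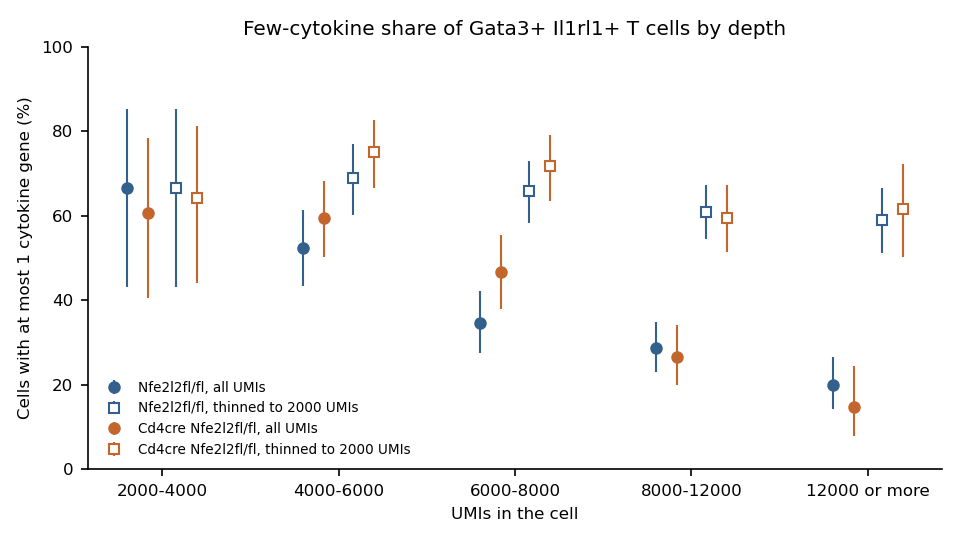
Share of Gata3+ Il1rl1+ T cells with UMIs of at most 1 of Il4, Il5 and Il13 (%, y axis) by UMIs per cell (x axis), for the control library and the library labelled Cd4cre; filled points use all UMIs, open points cells thinned to 2000 UMIs, and bars are 95% Clopper-Pearson intervals. With all UMIs the share runs from 66.7% and 60.7% in the shallowest cells to 19.9% and 14.8% in the deepest, and after thinning it stays between 59.1% and 75.2%.

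The cytokine genes and UMIs on each side of the limit are given as a description, because the rule read these 3 genes. No cytokine gene was seen in 80 and 73 few-cytokine cells, and 163 and 133 held 1. That gene was Il13 in 140 of 163 and 115 of 133 of them, Il4 in 14 and 13, and Il5 in 9 and 5. The few-cytokine class was therefore mostly made of cells with Il13 alone or with none. A single cytokine UMI was all that 36 cells of each library held. The median was 5 and 3 cytokine UMIs with 1 gene, 18 and 15 with 2 genes (308 and 209 cells), and 43 and 39 with 3 genes (181 and 108 cells). The richest few-cytokine cell held 103 UMIs of its 1 gene in the control library and 55 in the Cd4cre library.

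Il13 UMIs were found in a larger share of few-cytokine cells than in macrophages, taken as cells that should lack the transcript. The rule read Il13, so its share in few-cytokine cells is shaped by the gate and is given as a description. After thinning, 44.0% and 38.3% of them held an Il13 UMI. Without thinning the share was 57.6% and 55.8%, against 16.8% and 9.84% of comparison T cells. Macrophages (at least 10 Lyz2 UMIs, no CD3 UMI) gave 2.76% and 2.01%, at median depths of 3730 and 4843 UMIs. The comparison class thus also held some cells with Il13.

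Against comparison T cells, few-cytokine cells carried more transcripts of Calca, Areg and other secreted mediators, of the leukotriene receptor gene Ltb4r1, and of Epas1 and Pparg, which encode HIF-2 alpha and PPAR gamma, and fewer of the genes of naive, Th1 and Th17 cells. A gene was counted where its CPM differed at least 2-fold in both libraries, with 10 CPM added to each value, and reached 50 CPM in the higher class of each library. By this rule 39 of 2698 genes were higher (1.45%), 3 of them genes of the gate (Gata3, Il13 and Il1rl1), and 31 were lower (1.15%). In the control library alone 1.67% were higher and 1.70% lower, and in the Cd4cre library alone 1.89% and 1.52%. Ratios given per gene are without added CPM, and their 95% intervals cover counting error only.

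Calca ranked first among the named genes by the smaller of its 2 ratios with 10 CPM added. It encodes calcitonin gene-related peptide, a neuropeptide that also acts on immune cells (7:114631478-114636357, minus strand). Its level was 159 CPM in control and 197 CPM in Cd4cre few-cytokine cells, against 8.85 and 16.3 CPM in comparison T cells. The log2 ratios were 4.16 (3.82 to 4.52) and 3.59 (3.30 to 3.89), or 17.9-fold and 12.1-fold. Only 44 and 49 cells held a UMI, with 22.6% and 17.0% of the UMIs in the richest cell. Areg encodes amphiregulin, an epidermal growth factor receptor ligand of tissue repair (5:91139599-91148432, plus strand). Its 1759 and 1383 CPM compared with 364 and 299 CPM, 4.83-fold and 4.62-fold higher, in 137 and 113 cells.

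Il10, an anti-inflammatory cytokine, stood at 337 and 262 CPM against 144 and 120 CPM in comparison T cells, and 100 and 63 few-cytokine cells held its UMIs. The chemokine gene Cxcl2, a neutrophil attractant, stood at 142 and 275 CPM against 25.04 and 75.5, in 26 and 40 cells. The chemokine gene Ccl1 is a different case. Its 191 and 572 CPM, against 61.9 and 24.3, came from 16 and 10 cells, and 1 cell of each library held 76.9% and 75.1% of the UMIs. Of 16 measured genes on a list of effectors other than the 3 cytokines, 9 were at least 1.5-fold higher in both libraries (Areg, Il10, Csf1, Csf2, Calca, Tnfsf8, Tnfsf11, Ccl1 and Hdc) and Ltb was lower. The list's median log2 ratio was 0.69 and 0.87, against -0.06 and -0.05 over all genes at this limit, of which 2.14% were higher and 2.61% lower. For Csf2, 1 cell held 54 of 56 and 24 of 28 UMIs.

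The 250 bases before the annotated start are shown for 3 of the genes higher than in comparison T cells. Each contains a searched motif, but further genes with a match are named below without their sequence. The palindrome TGACGTCA (bound by CREB and ATF proteins) lies in Areg, 61 to 54 bases before the start, and in Hlf, 9 to 2 bases before it. AGATAA, known from GATA factors, lies on the reverse strand of Calca, 218 to 213 bases before the start. The sequences are RefSeq's, of GRCm38.p6, written 5′ to 3′ on the gene's strand with the match in capitals (TTATCT for the reverse match in Calca).
Areg, chr5:91139349-91139598, plus strand: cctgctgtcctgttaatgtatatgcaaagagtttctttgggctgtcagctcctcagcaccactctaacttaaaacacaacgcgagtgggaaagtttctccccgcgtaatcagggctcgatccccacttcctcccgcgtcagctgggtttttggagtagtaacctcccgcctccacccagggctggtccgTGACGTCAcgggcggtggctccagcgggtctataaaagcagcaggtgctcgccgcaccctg
Calca, chr7:114636358-114636607, minus strand: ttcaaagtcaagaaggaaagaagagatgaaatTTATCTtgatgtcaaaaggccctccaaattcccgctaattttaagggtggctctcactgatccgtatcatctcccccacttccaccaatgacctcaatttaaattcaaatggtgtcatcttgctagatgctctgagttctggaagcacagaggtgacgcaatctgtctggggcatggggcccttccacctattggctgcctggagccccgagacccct
Hlf, chr11:90390918-90391167, minus strand: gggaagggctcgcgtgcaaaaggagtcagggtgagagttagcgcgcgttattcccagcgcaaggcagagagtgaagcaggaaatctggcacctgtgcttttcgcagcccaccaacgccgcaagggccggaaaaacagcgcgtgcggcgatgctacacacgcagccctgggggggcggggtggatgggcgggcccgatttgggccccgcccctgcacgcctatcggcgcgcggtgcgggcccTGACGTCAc

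The 3 motifs were searched on both strands of these windows, with RefSeq sequences for 21 of 27 genes looked up. AGATAA or TGATAA occurred in 2 of 21 (Calca and Ccl1, 9.52%) against 16.9% of 27025 promoters. TGACNNNGC, the core of the antioxidant response element, occurred in 4 (Lgals7, Ltb4r1, Plac8 and Ptpn13) against 10.1% of all promoters, and TGACGTCA in 2 (Areg and Hlf) against 1.60%. These motifs do not overlap one another in the windows shown, and a match is a run of letters, not evidence of binding.

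Among transcription factors, Epas1 and Pparg were higher in few-cytokine cells. Epas1, which encodes HIF-2 alpha, an oxygen-regulated factor, stood at 151 and 138 CPM against 20.2 and 22.9 CPM, log2 ratios of 2.90 (2.64 to 3.17) and 2.59 (2.30 to 2.87), and 131 of 243 and 90 of 206 cells held a UMI. Pparg, the lipid-sensing nuclear receptor of tissue Th2 cells, stood at 101 and 69.5 CPM against 19.3 and 12.2, 5.22-fold and 5.71-fold higher. Hlf, a PAR-family bZIP factor, stood at 77.5 and 104 CPM against 23.5 and 23.1. By contrast, of 26 measured regulators of the cytokine locus, 1 was higher at the 1.5-fold limit, Bhlhe40 (1101 and 1274 CPM against 727 and 779), and Stat5b and Tcf7 were lower. The median log2 ratio of that list was -0.01 and 0.02. Maf, which activates Il4, stood at 272 and 276 CPM against 271 and 258, and Stat6, the IL-4 signal transducer, at 49.7 and 52.4 against 55.6 and 52.7, so neither reached 1.5-fold.

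Among receptors, Ltb4r1, the high-affinity leukotriene B4 receptor, stood at 251 and 183 CPM against 67.0 and 51.1 CPM, and Il10ra, an IL-10 receptor chain, at 109 and 123 against 19.4 and 27.1. Il2ra, the alpha chain of the IL-2 receptor, stood at 211 and 141 CPM against 50.4 and 55.0. Lower in level but also above the comparison were Il9r, the IL-9 receptor (35.3 and 34.7 CPM against 9.77 and 9.09), Cysltr1, a cysteinyl leukotriene receptor (44.2 and 62.0 against 7.94 and 7.01), and Ptgir, the prostacyclin receptor (18.4 and 16.4 against 2.85 and 2.96). Of 12 measured alarmin and IL-1 family receptor genes, 2 were at least 1.5-fold higher (Il17rb and the decoy receptor Il1r2) and none lower, with medians of -0.05 and 0.03. Of 8 measured prostanoid and leukotriene genes, 4 were at least 1.5-fold higher and none lower. Alox5ap, which presents arachidonic acid to 5-lipoxygenase, was 1 of them at 38.3 and 12.9 CPM, with 36 of its 77 control UMIs in 1 cell.

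The list of the tissue Th2 program, apart from the genes of the gate, had 18 measured members, of which 11 were at least 1.5-fold higher and none lower: Il17rb, Cd200r1, Pparg, Plin2, Cyp11a1, Il9r, Epas1, Igfbp7, Ltb4r1, Ecm1 and Hlf. The medians were 0.89 and 1.03. The list was chosen with earlier results of these data known. Epas1, Ecm1, Pparg, Ltb4r1 and Hlf were also among the genes named by rank in the same comparison. The count is therefore not an independent check of Th2 identity. With the comparison cells weighted to the depth of the few-cytokine cells, 9 of 18 passed, with medians of 0.75 and 0.86. Restricted to few-cytokine cells with none of the 3 cytokine genes, 5 of 16 passed, with medians of 0.57 and 0.53. By the 2-fold rule for single genes, with its higher minimum level, 35 of 2700 and 32 of 2689 genes were higher in these settings. The share of all genes at the list limit is not given for them, so these list counts lack a matched background. Ecm1, extracellular matrix protein 1, stood at 156 and 238 CPM against 30.1 and 24.3, with 30.9% and 22.1% of its UMIs in 1 cell. Cyp11a1, which makes pregnenolone from cholesterol, stood at 27.8 and 14.3 CPM in 12 and 8 cells, against 0.102 and 0 CPM.

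Further genes among the 25 ranked highest were these. Plac8 stood at 1081 and 1374 CPM against 202 and 255, 5.34-fold and 5.38-fold higher, in 138 and 131 cells. Lgmn, a lysosomal protease, stood at 145 and 178 CPM against 28.9 and 36.0. Hilpda, a lipid droplet protein induced by low oxygen, stood at 842 and 754 CPM against 343 and 272, and 212 of 243 and 169 of 206 cells held it. It was thus far more widely detected than Calca or Areg. Gclc, the catalytic subunit of the first enzyme of glutathione synthesis, stood at 68.6 and 69.5 CPM against 20.97 and 22.2. Fgl2, fibrinogen-like protein 2, stood at 427 and 366 against 162 and 128. The rest of the 25 were Ier3, Ipmk, Zcchc10, Lgals7, Tm7sf3, Tent5a, Ifitm2, Ptpn13 and Nfkbiz.

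Activation genes differed in part. Ier3, an immediate early gene, stood at 135 and 64.7 CPM in few-cytokine cells against 7.43 and 9.97 in comparison T cells. Nfkbiz and Nfkbia, both induced by NF-kappa B, stood at 368 and 365 CPM against 130 and 153, and at 3563 and 3974 against 1684 and 1844. Of 27 measured immediate early and activation genes, 9 were higher (Ier3, Tnfrsf4, Tnfrsf9, Tnfrsf18, Nfkbia, Nfkbiz, Il2ra, Cd40lg and Rel) and Nr4a2 was lower. The early gene Cd69 stood at 444 and 569 CPM against 364 and 391, below the limit.

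The 3 metabolic lists examined gave few or no genes past the limit in this comparison. Of 15 genes of PPAR gamma and lipid handling, 3 were higher (Pparg, Plin2 and Dgat1). Of 18 measured NRF2 targets, Gclc was higher and Ephx1 lower, with a median log2 ratio of 0.05 in both libraries, and Gclm, the modifier subunit that pairs with Gclc, stood at 90.0 and 102 CPM against 90.4 and 107. Of 16 glycolysis genes none passed in either direction.

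**Figure D2:**
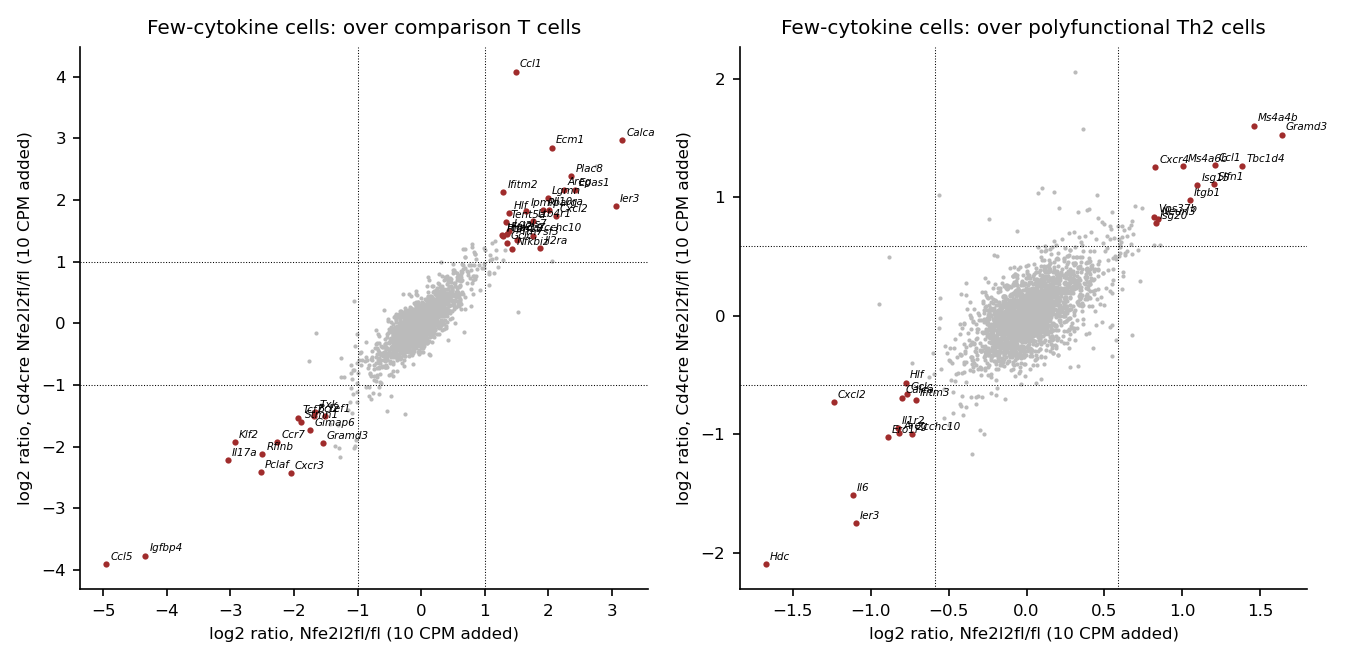
Each point is a gene, placed by its log2 ratio (10 CPM added) in the control library (x axis) and the library labelled Cd4cre (y axis), for few-cytokine cells over comparison T cells (left) and over polyfunctional Th2 cells (right); gate genes are left out, red labelled points are the named genes and dotted lines mark 2-fold (left) and 1.5-fold (right). Calca, Plac8, Areg, Epas1 and Ier3 lie at the upper right of the left panel, and Gramd3 and Ms4a4b at the upper right of the other.

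Genes of naive, Th1 and Th17 cells were lower in few-cytokine cells. Klf2, which maintains quiescence and egress (8:72319033-72321656), stood at 63.6 and 127 CPM against 553 and 509, log2 ratios of -3.12 (-3.38 to -2.87) and -2.01 (-2.23 to -1.80). Ccr7, the lymph node homing receptor, stood at 38.8 and 46.3 CPM against 225 and 204. Tcf7, a factor of naive and memory T cells, stood at 41.3 and 53.1 CPM against 185 and 172. Of 14 naive and central memory genes 11 were at least 1.5-fold lower and none higher (medians -1.89 and -1.62). Igfbp4 was among them, with 3 and 8 UMIs in few-cytokine cells (1.49 and 5.45 CPM) against 222 and 200 CPM in comparison T cells.

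Il17a, the Th17 cytokine, stood at 226 and 279 CPM in few-cytokine cells against 1927 and 1338 CPM, log2 ratios of -3.09 (-3.23 to -2.96) and -2.26 (-2.41 to -2.12). Transcripts were not absent, since 34 and 30 few-cytokine cells held a UMI. Of 12 Th17 genes, 7 were lower, and Ltb4r1, which the Th17 and tissue Th2 lists share, was higher. Of 13 Th1 genes 7 were lower and none higher. Cxcr3, a Th1 chemokine receptor, stood at 11.4 and 10.2 CPM against 78.8 and 99.4, and Ccl5, a chemokine of effector and cytotoxic T cells, at 13.9 and 274 against 729 and 4274. In the Cd4cre library 1 few-cytokine cell held 266 of the 403 Ccl5 UMIs. Pclaf and Stmn1 were also lower, at 8.95 and 4.77 CPM against 98.9 and 68.4, and at 46.7 and 40.2 against 200 and 142. These belong to the cell cycle, and the rule kept cycling cells out of the few-cytokine class but not out of the comparison T cells. With cycling cells left out of the comparison T cells too, 29 genes were lower, 28 of them among the 31. None of the 80 values recomputed for the named genes then changed sign. Genes of the regulatory T cell list did not follow the other lineage lists, although cells with a Foxp3 UMI were left out of both classes. Of its 10 measured genes, 5 were at least 1.5-fold higher in few-cytokine cells (Il2ra, Tnfrsf9, Tnfrsf4, Neb and Areg) and Izumo1r was lower, with medians of 0.68 and 0.59. The list summed to 4706 and 4345 CPM, against 3098 and 2526 in comparison T cells and 6076 and 5831 in polyfunctional cells, and the part of regulatory cells without a Foxp3 UMI in these values was not tested. The remaining genes among the 15 with the widest separation were Rflnb, Gimap6, Gramd3, Bcl2, Lef1 and Txk.

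Depth differs between these classes, and the separations were reread with the comparison cells weighted to the same depth. On the log2 scale with 10 CPM added, Calca was then 3.33 and 3.24, Plac8 2.18 and 2.20, Areg 2.01 and 1.93, Epas1 2.35 and 2.02, Pparg 1.72 and 1.67, Il17a -3.28 and -2.51, and Klf2 -1.90 and -1.33. All 40 named genes kept their direction in both libraries under this weighting, but Ccl1 (0.68), Gramd3 (-0.88) and Lef1 (-0.97) no longer reached 2-fold in the control library. Over all genes 35 were higher, 34 of them among the 39, and 24 were lower, of which only 15 were among the 31. Under thinning of every cell to 2000 UMIs, 42.8% and 41.3% of few-cytokine cells held an Areg UMI against 14.6% and 10.9% of comparison T cells. For Plac8 it was 46.1% and 54.9% against 11.3% and 15.2%, and for Epas1 18.5% and 22.3% against 3.37% and 3.28%.

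**Figure D3:**
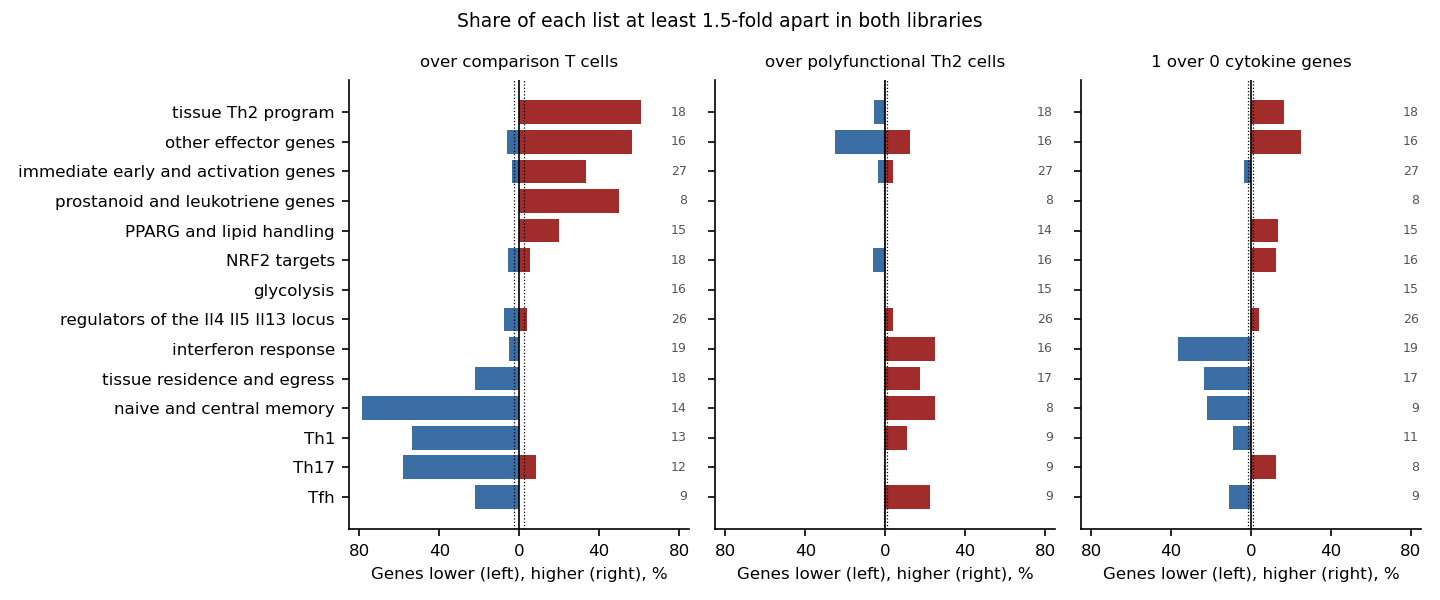
For 14 gene lists, the share of measured genes at least 1.5-fold higher (red, right) or lower (blue, left) in both libraries, in few-cytokine cells over comparison T cells, over polyfunctional cells, and with 1 over 0 cytokine genes; numbers give the genes measured and dotted lines the share over all genes. The tissue Th2 list (11 of 18 higher) and the naive list (11 of 14 lower) stand out in the first comparison, and the interferon list (4 of 16 higher, then 7 of 19 lower) in the others.

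Against polyfunctional Th2 cells, few-cytokine cells held more transcripts of Gramd3, Ms4a4b, Tbc1d4, the integrin gene Itgb1 and interferon-induced genes, and fewer of Hdc, Il6, Ier3 and Areg. Of 16 measured effector genes other than the 3 cytokines, 4 were at least 1.5-fold lower (Areg, Il6, Calca and Hdc) and 2 higher (Ltb and Ccl1), with medians of -0.06 and -0.17. Ccl1 lost this direction without the richest cell of each class. Over all genes at the list limit, a mean of 10 CPM, 0.785% were higher and 0.422% lower. For single genes the limit was 1.5-fold in both libraries with 10 CPM added, and at least 50 CPM in the higher class. Of 2578 genes, 29 were higher (1.12%) and 14 lower (0.543%), and 3 of the latter were Il4, Il5 and Il13, which the rule itself separated. In the control library alone 1.63% were higher and 0.815% lower, and in the Cd4cre library alone 2.48% and 1.40%. These classes split at the cytokine limit and differ in median depth, so class and depth cannot be told apart in the plain ratios, and ratios weighted to the same depth follow at the end.

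Gramd3, whose product binds lipid membranes, stood at 53.2 and 62.0 CPM in few-cytokine cells against 10.3 and 15.0 CPM in polyfunctional cells, log2 ratios of 2.37 (1.87 to 2.87) and 2.05 (1.52 to 2.60). Ms4a4b, a membrane protein of T cells, stood at 195 and 244 CPM against 64.5 and 73.5, with ratios of 1.59 (1.38 to 1.81) and 1.73 (1.48 to 1.98). In comparison T cells both were higher still, at 175 and 267 CPM for Gramd3 and 437 and 603 CPM for Ms4a4b. Itgb1, the integrin beta-1 chain, stood at 388 and 373 CPM against 183 and 185, with 266 and 373 CPM in comparison T cells. The Cd4cre few-cytokine and comparison cells thus had nearly the same Itgb1 level. Tbc1d4, a Rab GTPase activator in glucose transport, stood at 62.1 and 58.6 CPM against 17.7 and 18.6. Cxcr4, the CXCL12 receptor, stood at 59.2 and 94.7 CPM against 29.0 and 33.9.

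Isg15, a ubiquitin-like protein induced by interferon, stood at 236 and 295 CPM against 105 and 132 CPM in polyfunctional cells, log2 ratios of 1.17 (0.98 to 1.35) and 1.16 (0.96 to 1.36). Comparison T cells held 259 and 304 CPM, close to the few-cytokine class as a whole, within which cells with 0 and 1 cytokine genes differed, as given below. After thinning, 28.4% and 27.2% of few-cytokine cells held an Isg15 UMI, against 13.1% and 13.9% of polyfunctional and 22.2% and 26.9% of comparison cells. Of 16 measured interferon-response genes 4 were at least 1.5-fold higher (Isg15, Isg20, Ifi27l2a and Rtp4), none was lower, and 15 had a ratio above 0 in both libraries, with medians of 0.41 and 0.50. Over all genes 0.785% were higher and 0.422% lower at this limit, with medians of 0.02 in both libraries. With polyfunctional cells weighted to the same depth, 2 of 17 passed and 13 were above 0. With the gate itself read after thinning, 1 of 15 passed and 10 were above 0. By the 1.5-fold rule for single genes, with its higher minimum level, 17 of 2573 and 16 of 2589 genes were higher in these settings. The share of all genes at the list limit is not given for them, so these list counts lack a matched background.

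The other named genes higher in few-cytokine than in polyfunctional cells were Slfn1 (82.5 and 101 CPM against 30.2 and 41.2), Ms4a6b (149 and 194 against 69.3 and 75.2), Vps37b (445 and 546 against 248 and 302), Neurl3, Isg20 and Ccl1. For Ccl1 the direction was lost once the richest cell of each class was left out, at log2 ratios of -0.53 and -0.18 with 10 CPM added. S1pr1, the receptor for egress from tissue, stood at 36.3 and 33.4 CPM against 12.1 and 6.65, and together with Itgb1 and Vps37b it made up the 3 of 17 residence and egress genes that were higher. Ltb, the lymphotoxin beta gene, stood at 371 and 403 CPM against 218 and 210, and at 742 and 612 CPM in comparison T cells. Ifng, the Th1 cytokine, stood at 25.9 and 32.7 CPM against 5.56 and 17.6.

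Among genes lower than in polyfunctional cells, Hdc had the widest separation. It encodes histidine decarboxylase, the enzyme of histamine synthesis (2:126593667-126619299, minus strand), and stood at 29.3 CPM in both libraries against 116 and 158 CPM, log2 ratios of -1.98 (-2.39 to -1.59) and -2.43 (-2.92 to -1.98). Only 20 and 10 few-cytokine cells held a UMI. Mast cells and basophils also express Hdc. Their 12 markers summed to 40.7 and 15.3 CPM in polyfunctional cells, with 7 and 8 at 0, against 8.95 and 4.77 CPM in few-cytokine cells, and their part in the Hdc values was not tested. Il6 stood at 17.9 and 13.6 CPM against 50.4 and 57.5. Il1r2, the decoy receptor for IL-1, stood at 289 and 287 CPM against 520 and 563. Ero1l, an oxidase of disulfide formation in the endoplasmic reticulum, stood at 106 and 96.0 against 205 in both libraries.

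Areg and Calca, both far above comparison T cells, were also lower than in polyfunctional cells. Areg stood at 1759 and 1383 CPM against 3107 and 2759, and Calca at 159 and 197 against 284 and 324. Ier3 stood at 135 and 64.7 CPM against 299 and 241, and Gclc at 68.6 and 69.5 against 124 and 115. Few-cytokine cells thus had levels between those of comparison and polyfunctional cells for these genes. Plac8 and Hilpda lay nearer the polyfunctional than the comparison level: Plac8 stood at 1081 and 1374 CPM against 1109 and 1685, and Hilpda at 842 and 754 against 903 and 757. Zcchc10, Cxcl2, Ifitm3 and Hlf completed the 12 named. Hlf, at 77.5 and 104 CPM against 140 and 159, was past 1.5-fold in the control library only, with log2 ratios of -0.77 and -0.56 after adding 10 CPM.

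The tissue Th2 list was slightly lower as a whole. Of 18 genes, Cyp11a1 alone passed, 15 had a ratio below 0 in both libraries, and the medians were -0.25 and -0.34. For glycolysis none of 15 passed, 11 were below 0, and the medians were -0.29 and -0.35. Of 26 regulators of the cytokine locus Tcf7 alone was past the limit, as a higher gene. Bhlhe40 stood at 1101 and 1274 CPM against 999 and 1154, Maf at 272 and 276 against 282 and 314, Batf at 381 and 371 against 349 and 358, and Irf4 at 58.7 and 49.7 against 75.8 and 90.1. Of 27 activation genes Nr4a3 was higher and Ier3 lower. Cd69 stood at 444 and 569 CPM against 469 and 571.

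With polyfunctional cells weighted to the depth of few-cytokine cells, the log2 ratios with 10 CPM added were 1.60 and 1.76 for Gramd3, 1.11 and 1.16 for Ms4a4b, 0.99 and 0.89 for Isg15, -1.86 and -2.21 for Hdc and -0.95 and -1.17 for Areg. All 24 named genes kept their direction in both libraries, while 17 genes in place of 29 passed as higher. In the Cd4cre library Vps37b (0.57), Neurl3 (0.53), Isg20 (0.53) and Cxcl2 (-0.57) no longer reached 1.5-fold, and Hlf was -0.58.

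Within the few-cytokine class, cells with 1 cytokine gene were compared with cells that had none. Cells without any cytokine UMI held more Gramd3, S1pr1, Klf2, Ms4a4b and interferon-response transcripts, and cells with 1 held more Oxsr1, Gsn and Ero1l. Of 2638 genes, 29 were at least 1.5-fold higher in both libraries with 1 gene (1.10%, Il13 of the rule among them) and 41 lower (1.55%). Far more genes passed in a single library, 2.73% higher and 4.09% lower in the control library and 5.19% and 5.16% in the Cd4cre library. The median cell without a cytokine gene held 5964 and 5659 UMIs, and the median cell with 1 held 7883 and 6795.

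Gramd3 was 124 and 163 CPM in cells without a cytokine gene and 26.7 and 19.4 CPM in cells with 1, log2 ratios of -2.22 (-2.82 to -1.63) and -3.07 (-3.86 to -2.34). S1pr1 was 78.4 and 87.1 CPM against 20.5 and 10.7, and Klf2 142 and 222 CPM against 34.2 and 86.3. Both are genes of circulating T cells. Isg15 was 421 and 511 CPM against 166 and 204, log2 ratios of -1.34 (-1.61 to -1.08) and -1.33 (-1.61 to -1.05). Weighted to the same depth, Isg15 gave -1.07 and -1.21, S1pr1 -1.28 and -2.22, and Klf2 -1.27 and -0.42, so that Klf2 did not reach 1.5-fold in the Cd4cre library. Of 19 interferon-response genes 7 were lower with 1 cytokine gene (Isg15, Isg20, Irf7, Rsad2, Ifi27l2a, Igtp and Rtp4) and none higher. In that list 16 were below 0 in both libraries, with medians of -0.49 and -0.96. The background at this limit was 0.973% higher and 1.44% lower.

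Ms4a4b (328 and 431 CPM without a cytokine gene, 145 and 165 with 1), Gimap6, Arl5c and the chemokine gene Cxcl10 (87.5 and 75.6 against 22.6 and 27.1 CPM) were the other named lower genes. On the higher side, Oxsr1, a kinase of the osmotic response, was 67.4 and 39.0 CPM without and 148 and 89.2 CPM with 1 cytokine gene. Gsn, the actin-severing protein gelsolin, was 78.4 and 36.7 against 155 and 89.2, and Ero1l 62.0 and 50.4 against 122 and 115. Il17a was 137 and 142 CPM against 260 and 337, but without a cytokine gene it came from 10 and 6 cells, with 40% and 41.9% of the UMIs in 1. Weighted to the same depth, Il17a (0.49), Cxcl10 (-0.42) and Gimap6 (-0.53) in the Cd4cre library and Cxcl3 (0.38) in the control library did not reach 1.5-fold. Ccl1 and Cxcl3 rested on few cells: with 1 cytokine gene, a single cell held 87.6% and 75.7% of Ccl1 and 55.3% and 22.8% of Cxcl3 UMIs. Hspa1a and Smim3 completed the named genes.

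The classes were also set out from 0 to 3 cytokine genes. Calca ran 104, 179, 243 and 344 CPM in the control library and 110, 234, 338 and 301 CPM in the Cd4cre library. Hlf ran 49.2, 88.2, 135 and 146 CPM and 50.4, 127, 152 and 171 CPM. Isg15 ran the other way, 421, 166, 100 and 112 CPM and 511, 204, 148 and 106 CPM. Vps37b ran 627, 377, 284 and 197 CPM and 813, 433, 360 and 206 CPM, lower at each step in both libraries. Areg did not form a gradient within the few-cytokine class, at 2165 and 1607 CPM with 0 and 1 genes in the control library and 1301 and 1417 CPM in the Cd4cre library, against 3179 and 3003 and 2476 and 3225 CPM with 2 and 3 genes. Epas1 was 158 and 148 CPM and 89.4 and 158 CPM with 0 and 1 genes, so its direction differed between the libraries. Even cells without any cytokine UMI held more Calca than the 8.85 and 16.3 CPM of comparison T cells.

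Hdc, low in the few-cytokine class, ran 20.0, 32.8, 60.9 and 195 CPM in the control library. In the Cd4cre library it ran 77.9, 8.72, 112 and 235 CPM, so the cells without a cytokine gene there were not the lowest. Few cells stood behind these values: 10 Cd4cre few-cytokine cells held 43 Hdc UMIs, 18 of them in 1 cell. Il1r2 ran 235, 309, 511 and 533 CPM and 110, 362, 500 and 666 CPM. Igfbp7, an insulin-like growth factor binding protein of the tissue Th2 list, ran 279, 472, 499.5 and 656 CPM and 124, 508, 523 and 606 CPM, higher at each step in both libraries. Ifi27l2a, of the interferon list, was lower at each step, at 3570, 1544, 1250 and 1019 CPM and 4720, 3034, 2495 and 2071 CPM. Depth also moves along this order, from medians of 5964 and 5659 UMIs without a cytokine gene to 10362 and 9390.5 UMIs with 3.

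**Figure D4:**
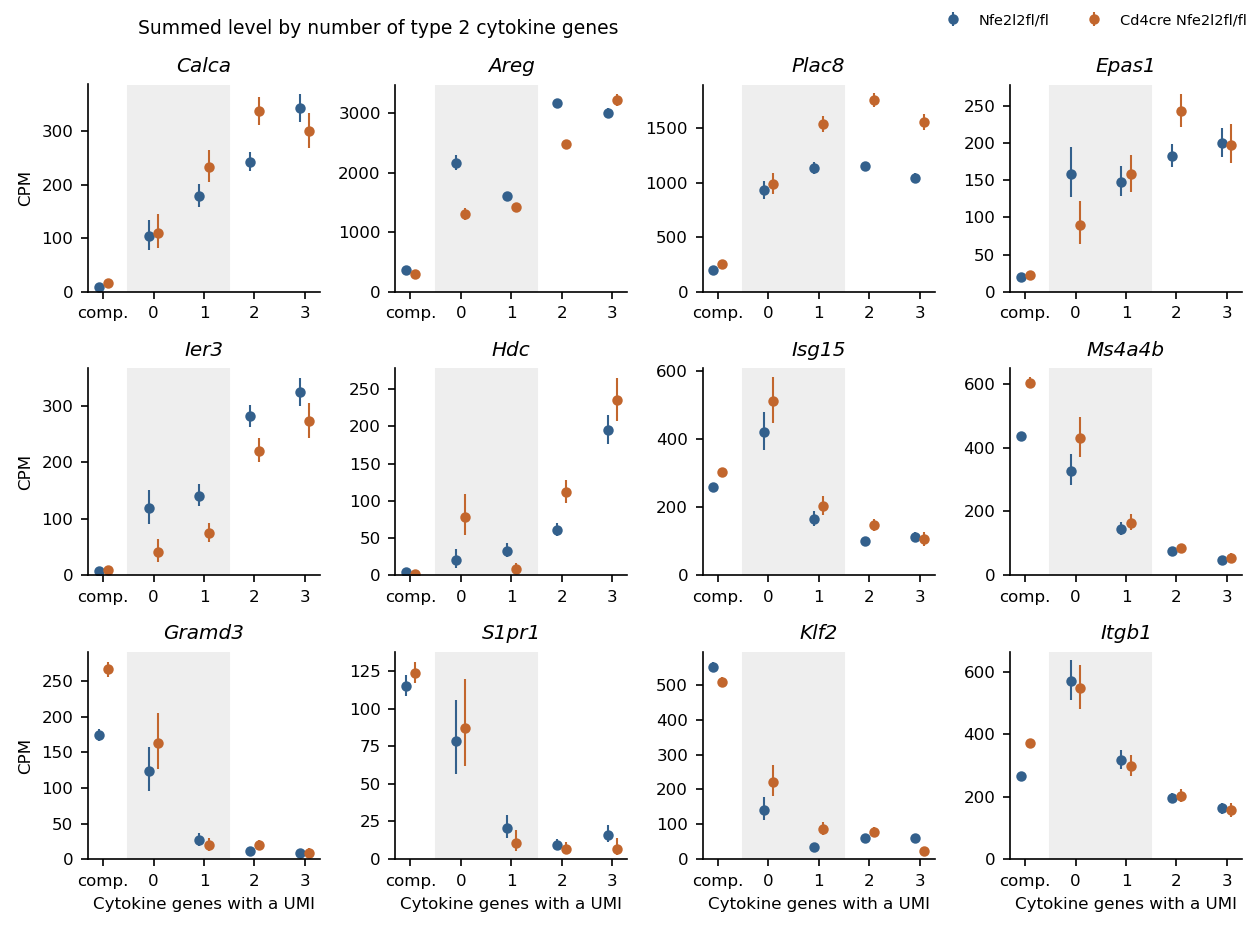
CPM (y axis) of 12 genes in comparison T cells and in Gata3+ Il1rl1+ T cells with 0, 1, 2 or 3 of the type 2 cytokine genes (x axis), by library; grey marks the few-cytokine cells and bars are 95% Poisson intervals of the summed counts. Calca, Hdc and Areg are highest with 2 or 3 cytokine genes, and Isg15, Ms4a4b, Gramd3 and Itgb1 are highest with 0 among the Gata3+ Il1rl1+ cells.

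Differences between the libraries are described next, within the few-cytokine class. Of 2766 genes, 43 were at least 1.5-fold higher in the library labelled Cd4cre (1.55%) and 26 lower (0.940%). Apart from Nfe2l2, several named genes were set by 1 cell. Ccl24, an eosinophil chemokine, was 30.3 CPM in the control and 74.9 CPM in the Cd4cre library, with 69.1% of the latter in 1 cell. The major histocompatibility class II genes H2-Eb1, H2-Aa and H2-Ab1 were lower in the Cd4cre library (79.0, 90.0 and 61.1 CPM against 12.9, 26.6 and 20.4), but 1 control cell held 91.2%, 87.3% and 82.9% of their UMIs. Without the richest cell of each library the log2 ratios, with 10 CPM added, were 0.10, -0.04 and 0.12. For Ccl24 the ratio was 0.20, for Cd81 0.50 and for Ifi30 -0.41.

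Genes spread over more cells were these. Tnfrsf9, the costimulatory receptor 4-1BB, was 57.2 CPM in the control and 119 CPM in the Cd4cre library (46 and 57 cells), a log2 ratio of 1.06 (0.71 to 1.41), while polyfunctional cells held 52.6 and 51.2 CPM. Klf2 was 63.6 and 127 CPM, a log2 ratio of 0.99 (0.66 to 1.33), with 59.9 and 56.5 CPM in polyfunctional and 553 and 509 CPM in comparison cells. Weighted to the same depth, with 10 CPM added, its ratio was 0.50 and no longer reached 1.5-fold. For both genes the polyfunctional cells of the libraries were nearly level. Ier3 was lower in the Cd4cre library, 135 against 64.7 CPM, a log2 ratio of -1.06 (-1.41 to -0.72), with 299 and 241 CPM in polyfunctional cells. Glrx, the redox enzyme glutaredoxin, was 437 and 272 CPM, a ratio of -0.69 (-0.86 to -0.51). Ifit1, an interferon-induced gene, was 16.4 and 61.3 CPM, with 27.8% in 1 cell. The other higher genes named were Ifitm2, Ccrl2, Cxcl2 and Polr2l, and the other lower ones Gsn, Aggf1, Impa1, Oxsr1, Cst7 and Dars. Ccl5 and Ccl1, also named as higher, were not widely spread. A single Cd4cre cell held 266 of 403 Ccl5 UMIs, and 1 cell of each library held 76.9% and 75.1% of Ccl1 UMIs. Without the richest cells their log2 ratios, with 10 CPM added, were 2.37 and 1.51. Ccl5 was also higher in the Cd4cre library in polyfunctional cells (33.7 and 79.5 CPM) and in comparison T cells (729 and 4274 CPM). For Ccl1 the polyfunctional cells held 77.2 and 231 CPM, and the comparison T cells went the other way, at 61.9 and 24.3 CPM. Without the deepest 5% of cells the ratio of Ccl1 was -1.12. Weighted to the same depth, Gsn (-0.58), Oxsr1 (-0.54), Cst7 (-0.54), H2-Ab1 (-0.55) and Ifi30 (-0.40) also did not reach 1.5-fold.

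The NRF2 target list is the one closest to the labelled gene. None of its 17 measured genes was at least 1.5-fold apart between the libraries, 9 had a ratio above 0, and the median log2 ratio was 0.01, against -0.03 over all genes. At this limit 1.37% of all genes were higher and 1.56% lower. Gclc was 68.6 and 69.5 CPM, Gclm 90.0 and 102 CPM, and Txnrd1, thioredoxin reductase, 50.2 and 56.5 CPM. Of 19 interferon-response genes 5 were higher in the Cd4cre library (Ifit1, Ifit3, Usp18, Ifi27l2a and Rtp4), none lower, 16 above 0, with a median of 0.39. Ifi27l2a was 2097 and 3535 CPM in few-cytokine cells, and 2022 and 2676 CPM in comparison T cells. Of 22 costimulation and checkpoint genes 5 were higher (Cd274, Pdcd1lg2, Tnfrsf9, Cd200 and Nt5e), and of 15 glycolysis genes none passed in either direction (12 below 0, median -0.12). With 1 library each, none of these differences has a replicate check.

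**Figure D5:**
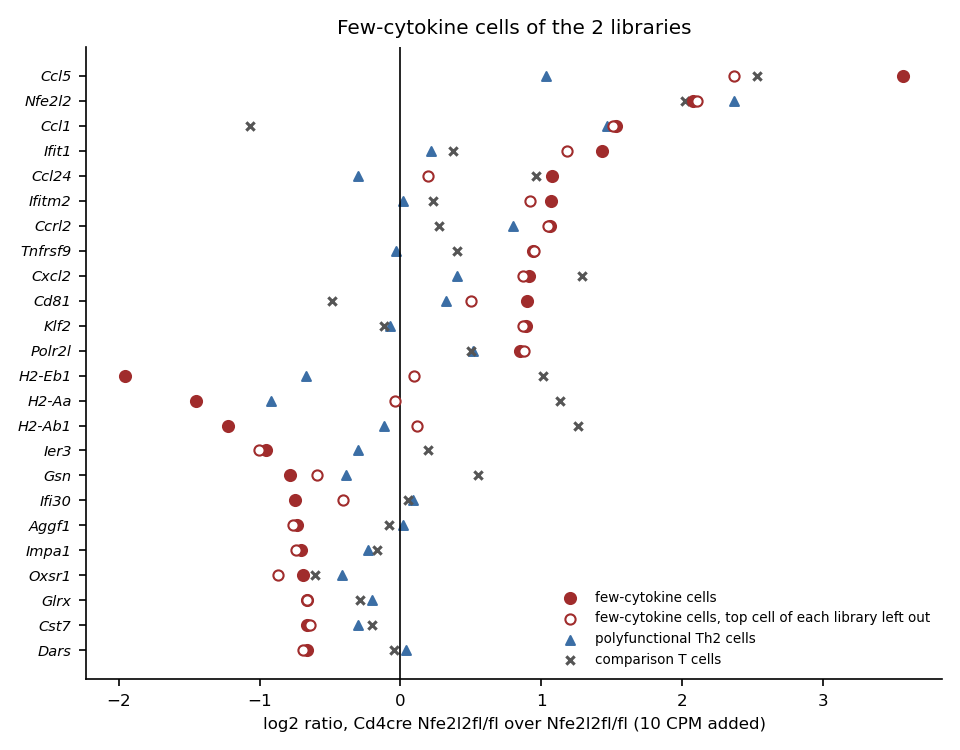
Log2 ratio of CPM (10 CPM added), library labelled Cd4cre over control library (x axis), for the 24 named genes; filled red points are few-cytokine cells, open points the same without the richest cell of each library, blue triangles polyfunctional cells and crosses comparison T cells. Nfe2l2 is high in every class, and the class II genes move to near 0 when the richest cells are left out.

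T cell receptor V genes showed no V gene held by most few-cytokine cells. A Trbv UMI was found in 228 of 243 and 192 of 206 cells, 74 and 53 of them with more than 1 Trbv gene. Trbv13-2 was found in 25.4% and 23.4% of cells with any Trbv UMI, against 24.9% and 18% of polyfunctional and 22.7% and 21.01% of comparison cells. Trbv16 was found in 20.2% and 16.1%, against 20.1% and 17.7% of polyfunctional and 13.7% and 14.4% of comparison cells. Trbv3 (14.5% and 14.1%), Trbv12-2 (10.1% and 7.81%) and Trbv4 (7.89% and 9.90%) followed. A Trav UMI was found in 178 and 148 cells. Trav5-4 was in 11.2% and 6.76% of those, and Trav14-1 in 9.55% (17 cells) and 2.03% (3 cells). These are V gene UMIs and not assembled receptors, so clones were not examined.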

How the data were processed

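Lung CD4+ cells were profiled by 10x 5′ single-cell RNA sequencing (version 2 reagents), 1 library per genotype. Per the submitters' processing notes, the authors used Cell Ranger 4.0.0 and GRCm38. The deposited matrices hold raw UMI counts per gene and cell, and the deposited feature and barcode lists hold names and no measurement. The libraries held 5729 and 6808 barcodes with 41391255 and 38744058 UMIs, of which 5433 and 6306 passed 500 genes and 10% mitochondrial UMIs, 5168 and 5644 also 2000 UMIs, and 4696 and 4307 the T cell gate.

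GENCODE M21 matched 32158 of 32285 gene identifiers, and 40 repeated symbols were summed. Counts were summed per library and class, divided by the class total (CPM) and compared as log2 ratios with 10 CPM added. Intervals (95%: Poisson for levels, conditional binomial for ratios, Clopper-Pearson for shares) cover counting error only, and no p-value can be given with 1 library per group. Thinning drew 2000 UMIs per cell without replacement. Cells of a library are not replicates. No doublet caller was run. The deepest 5% of cells were left out as an alternative.

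Named genes reached 50 CPM in the higher class and ranked highest by the library with the smaller ratio: 25 higher and 15 lower against comparison T cells, 12 and 12 against polyfunctional cells and between libraries, 8 and 8 within the class. Gate, receptor, immunoglobulin, haemoglobin, mitochondrial, ribosomal and sex-linked genes and unnamed gene models were not eligible. List genes needed a mean of 10 CPM, and gate genes were left out of lists. The members and lists were chosen with earlier results of these data known. Promoters came from RefSeq. Python 3.11.15, numpy 2.4.6, scipy 1.17.1, pandas 2.3.3 and matplotlib 3.10.9 were used, and the scripts were tested on simulated data.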

Additional observations from a re-analysis of the deposited data

Results flagged for a closer look

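For 5 genes the few-cytokine cells lay on opposite sides of another class in the 2 libraries, and in each case the difference was not tested. Against comparison T cells, the log2 ratio (10 CPM added) of Ccr9, a gut-homing chemokine receptor, was -0.758 in the control and 1.03 in the Cd4cre library, with 3 cells holding a UMI in each and 24 of 31 UMIs in 1 Cd4cre cell. Cd81, a tetraspanin, was -0.708 and 0.676. Against polyfunctional cells, Ccl5 was -0.871 and 1.67, with 266 of 403 Cd4cre UMIs in 1 cell. Gzma, a granzyme, was -0.723 and 0.769, from 2 and 5 cells. Penk, which encodes the enkephalin precursor, was -1.37 and 1.48. Its UMIs came from 7 and 9 cells, and 1 control cell held 83 of 95.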

How the results depend on the processing

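No paired analysis was possible because there is 1 library per genotype. The share of few-cytokine cells depended on depth: thinned to 2000 UMIs it was 63.3% and 66.9% in place of 33.2% and 39.4%, and with at least 2 Il1rl1 UMIs it was 33.2% in the Cd4cre library. The Cd4cre minus control difference over the whole class was 3.16 to 6.69 points in the settings tried, but within depth ranges its sign varied. Counts of genes are given in the order higher and lower against comparison T cells (39 and 31), against polyfunctional cells (29 and 14) and between libraries (43 and 26). With no minimum level they were 61 and 63, 56 and 34, and 140 and 163. Thinned cells gave 119 and 173 between libraries. At least 2 Il1rl1 UMIs gave 19 higher against polyfunctional cells and 45 lower between libraries. Cells with none of the 3 cytokine genes gave 116 and 61 against polyfunctional cells and 155 and 215 between libraries. Chosen after seeing the data, weighting to the same depth gave 17 higher against polyfunctional cells, 13 of them shared with the 29. Reading the gate after thinning, also added, gave 16, of which 5 were shared. Other added settings were leaving out each gene's richest cell and leaving cycling cells out of the comparison. The causes were not tested.

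Log2 ratios (10 CPM added, except where 1 CPM was) changed sign in 3 of 1040 recomputed values against comparison T cells and 7 of 576 against polyfunctional cells. They did so in 4 of 352 within the class and 23 of 288 between libraries. Each total includes the settings with 1 CPM added and with no minimum level, in which no sign can change. Each of these settings holds 80, 48, 32 and 24 of the values, in the same order. Ccl1 changed sign against comparison T cells with at least 2 Il1rl1 UMIs (-1.15, control), without cytokine genes (-0.53, Cd4cre) and with the gate read after thinning (-1.12, control). Against polyfunctional cells Ccl1 did so without the deepest cells (-1.38, Cd4cre), with at least 2 Il1rl1 UMIs (-1.32, control), without cytokine genes (-3.35, Cd4cre), without the richest cell (-0.53 and -0.18) and with the gate read after thinning (-0.31 and -0.17). Between libraries Ccl1 was -1.12 without the deepest cells and -2.01 without cytokine genes. Within the class, Arl5c was 0.052 with at least 2 Il1rl1 UMIs (control), and the gate read after thinning gave Cxcl3 -0.29 (Cd4cre), Il17a -1.42 (control) and Hspa1a -2.58 (Cd4cre). Between libraries, Cd81 was -0.081 in thinned cells and Ccl24 -0.41 with at least 2 Il1rl1 UMIs. H2-Eb1, H2-Aa, H2-Ab1 and Ifi30 were 0.78, 1.46, 0.87 and 0.083 without the deepest cells and 1.61, 2.56, 1.99 and 0.80 without cytokine genes. H2-Eb1 and H2-Ab1 were 0.10 and 0.12 without the richest cell. With the gate read after thinning the between-library ratios of H2-Eb1, H2-Aa, H2-Ab1, Ifi30 and Oxsr1 were 1.28, 1.61, 1.12, 0.13 and 0.14, and those of Ifitm2, Ccrl2, Tnfrsf9 and Cxcl2 were -0.0094, -0.078, -0.019 and -0.50.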
